A study of Mus musculus with 8 samples.

Results

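The sites described here are those called in the anti-Myc libraries of intestinal villus cells, with an Rb-deficient library set against a control library. They are named Myc sites after the antibody, and whether Myc binds them was not tested. They were chosen by antibody and cell type alone and comprise every site of both lists, 4119 in Rb-deficient and 7223 in control villus, which makes 11342 of the 284230 sites of the 8 libraries. Each site is a single base called as a binding event from ChIP-exo-seq, in which precipitated chromatin is trimmed by an exonuclease up to the crosslinked protein. The study mapped Myc and E2f3 in crypt and villus cells of both genotypes, with 1 library for each combination.

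The Rb-deficient villus cells came from mice in which an inducible intestinal Cre recombinase (Ah-cre) had deleted Rb, and the control villus cells came from control mice. All mice had a mixed C57BL/6, 129 and FVB/N background. The sources used here do not give their ages, the inducing agent or the number of animals per library. The Myc antibody was Santa Cruz sc-764 X, lot D2314, and the E2f3 antibody was Santa Cruz sc-878 X, lot E1712. Neither an input nor a control-antibody library entered the comparison. Site lists measure neither the deletion nor the villus identity, so neither label could be checked. Sequencing depth is unknown. With 1 library a group no difference has a replicate check, and all intervals are exact 95% binomial (Clopper-Pearson) intervals that cover counting error only.

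Myc is a transcription factor that binds DNA as a dimer with Max, preferentially at the E-box, and is known for driving genes of ribosome production, metabolism and growth. Rb restrains the E2F family, of which E2f3 is an activating member, and thereby holds cells out of the cell cycle. Villi carry the differentiated cells of the small intestine, while dividing cells lie in the crypts, where Myc is a known target of Wnt signalling.

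Most villus Myc sites in both genotypes carried the same 7 bases beside them, so examples are shown before the counts. The first set holds the Rb-deficient positions of strongly scored sites that both villus Myc lists share. They were taken, after the pattern was seen, from the 8 best-ranked such sites that carried these 7 bases and scored below the upper cap. Sites without the 7 bases could not enter this set. Each sequence was read from the reference assembly of build mm9 (NCBIM37) in the direction in which the 7 bases lead towards the site. The site is the base with 25 more bases after it, and capitals mark GTGTGCT.
Ube2f intron, chr1:93164829-93164979, minus strand: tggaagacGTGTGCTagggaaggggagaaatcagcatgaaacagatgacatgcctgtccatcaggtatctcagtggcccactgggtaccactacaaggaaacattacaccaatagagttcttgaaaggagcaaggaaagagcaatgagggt
near Ccdc67, chr9:15359328-15359478, plus strand: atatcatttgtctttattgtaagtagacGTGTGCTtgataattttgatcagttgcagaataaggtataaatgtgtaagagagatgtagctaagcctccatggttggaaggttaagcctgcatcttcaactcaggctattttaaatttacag
near Col14a1, chr15:55358352-55358502, minus strand: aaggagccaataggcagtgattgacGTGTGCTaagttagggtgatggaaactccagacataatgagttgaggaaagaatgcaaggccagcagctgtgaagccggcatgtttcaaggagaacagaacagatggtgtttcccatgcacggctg
Smyd3 intron, chr1:181282481-181282631, minus strand: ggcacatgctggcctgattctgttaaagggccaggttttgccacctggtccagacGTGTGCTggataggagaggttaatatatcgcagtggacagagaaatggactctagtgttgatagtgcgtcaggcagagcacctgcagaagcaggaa
4932443I19Rik intron, chr8:13716710-13716860, plus strand: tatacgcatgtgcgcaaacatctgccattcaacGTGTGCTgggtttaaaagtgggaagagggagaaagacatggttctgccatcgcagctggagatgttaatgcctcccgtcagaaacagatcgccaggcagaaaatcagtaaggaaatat
All of these 5 sites had a partner in every one of the 7 other libraries, E2f3 included. The best-ranked of the 8, in an intron of Sfi1 and not shown, had a partner in 5. Their scores were between 46.55 and 54.92 in Rb-deficient villus, against 51.03 to 97.64 in control villus, and the partners lay 2 to 33 bp apart. The score is the authors' own per-site value, with no stated unit or normalization between lists, and it ranks sites within a list only.

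The word GTGTGCT, read towards the site and ending 30 to 200 bp before it, accompanied 65.8% (64.3 to 67.3) of Rb-deficient villus Myc sites and 61.9% (60.7 to 63.0) of control villus Myc sites. Both strands were searched, here and for the motifs below, at the 3929 Rb-deficient and 7019 control sites on the reference chromosomes. Windows 2 kb to either side of these sites held it at 2.72% for the Rb-deficient list and 3.0% for the control list. Read away from the site at the same distance, the word was found at 2.70% of Rb-deficient and 2.52% of control sites, so its excess had a single direction. The word ended a median of 85 bp before Rb-deficient sites (quartiles 70 and 102) and 81 bp before control sites (quartiles 67 and 96). It was found by comparing all words of 7 bases around the sites with the side windows, where it ranked first with 63.9% against 5.20% of windows, and it was therefore chosen on these data. Its last 6 bases alone, TGTGCT, were present at 81.1% of Rb-deficient and 78.0% of control sites, against 12.3% and 12.6% of the side windows.

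**Figure D1:**
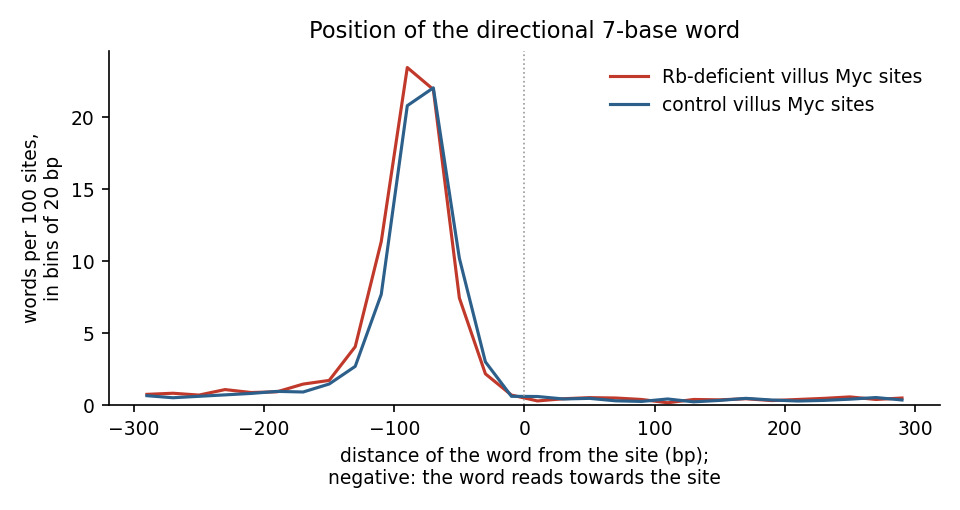
Number of words GTGTGCT per 100 villus Myc sites (vertical axis, bins of 20 bp) by the distance between the word and the site in bp (horizontal axis), with both strands folded so that negative distances read towards the site; the Rb-deficient line is red and the control line blue. Both lines peak on the negative side, the Rb-deficient line in the bin from -100 to -80 bp and the control line in the bin from -80 to -60 bp, and stay flat on the other side.

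The letters in front of the word differed from the side windows too. The base just before it was C in 44.9% of words at Rb-deficient sites and 37.5% at control sites, against 9.26% and 8.0% in the side windows, where T prevailed. Among all words of 7 bases in both lists together, CGTGTGC was present in 29.6% of site windows against 1.5% of side windows, and GACGTGT in 10.7% against 0.635%. This extended form can be read in several of the sequences above. As background, the same letters in the same order are part of an adapter of a widely used Illumina library kit. Which oligonucleotides these libraries were made with was not given in the labels, and the part of such letters in the site lists was not tested.

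The word was a feature of all 8 libraries, with a larger share in the villus Myc lists. It was chosen on the villus Myc lists, and the lists were compared at their full, unequal lengths. Whether the larger share is particular to these lists was therefore not tested. It accompanied 43.5% of Rb-deficient and 52.8% of control villus E2f3 sites, 47.6% of Rb-deficient and 39.0% of control crypt Myc sites, and 41.1% of Rb-deficient and 44.9% of control crypt E2f3 sites. Among villus Myc sites, those found in all 8 libraries had it at 70.0% in the Rb-deficient list and 70.3% in the control list. Those found in no other library had it at 11.9% (3.98 to 25.6) of 42 Rb-deficient sites and 8.18% (3.81 to 15) of 110 control sites. Their own side windows held it at 2.38% for the Rb-deficient and 4.55% for the control list, the latter within the control interval. Shared sites had it at 67.8% in the Rb-deficient and 68.0% in the control list, and unshared sites at 61.0% in the Rb-deficient list and 57.9% in the control list.

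The E-box CACGTG was present at few sites. Within 50 bp it was present at 1.65% (1.28 to 2.10) of Rb-deficient sites, against 1.01% of side windows, and at 1.17% (0.930 to 1.45) of control sites, against 1.04% of side windows. Within 250 bp it was present at 8.20% of Rb-deficient sites, 1.54 times the side windows, and at 7.74% of control sites, 1.48 times the side windows. An E-box can overlap the word, since the bases CAC before it complete one, and most of the excess within 250 bp lay there. E-boxes that overlapped the word were present at 2.27% (1.82 to 2.78) of Rb-deficient sites and 1.97% (1.65 to 2.32) of control sites, 22.2 and 21.2 times the side windows. E-boxes apart from the word were present at 6.03% (5.31 to 6.82) of Rb-deficient sites, against 5.23% of side windows, and at 5.84% (5.30 to 6.42) of control sites, against 5.16%. For these the ratio was 1.15 in the Rb-deficient and 1.13 in the control list. Within 50 bp the excess of the Rb-deficient list lay mostly apart from the word, with 1.5% (1.15 to 1.93) of sites, 1.49 times the side windows, against 0.153% with an overlapping E-box. In the control list 1.15% (0.917 to 1.43) had one apart from the word within 50 bp, 1.11 times the side windows. Rb-deficient crypt Myc had an E-box apart from the word within 50 bp at 6.14% (5.87 to 6.41) of sites, 5.79 times its side windows. Within 250 bp it had one at 11.0% (10.7 to 11.4), which was 2.09 times its side windows.

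**Figure D2:**
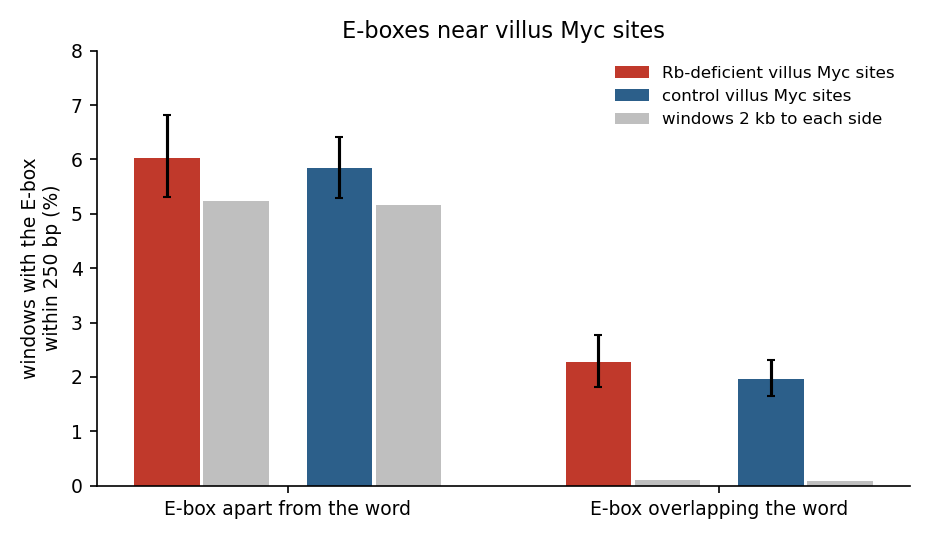
Share of windows with an E-box within 250 bp in percent (vertical axis), for E-boxes whose letters lie apart from the word and for those that overlap it; coloured bars are sites (red Rb-deficient, blue control) with 95% binomial intervals and grey bars the windows 2 kb to each side. Apart from the word the shares of 6.03% and 5.84% stand just above the grey bars, and overlapping it the shares of 2.27% and 1.97% stand far above theirs.

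The E2F motif, searched on both strands as the 4 forms of TTNNCGC with C or G at both N, was present within 50 bp of 0.611% (0.392 to 0.908) of Rb-deficient sites and 0.470% (0.324 to 0.660) of control sites. The side windows held it at 0.471% and 0.442%, within both intervals.

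Both lists had 29 Rb-deficient sites whose shared partner also carried an E-box within 50 bp. The best-ranked of them, an intergenic site 60978 bp from Axin2, did not carry the word. Its scores were 134.67 in Rb-deficient villus and 51.11 in control villus. A pair chosen because they carried both the E-box and the word is shown, with capitals marking GTGTGCT and CACGTG.
Abca1 intron, chr4:53115453-53115603, minus strand: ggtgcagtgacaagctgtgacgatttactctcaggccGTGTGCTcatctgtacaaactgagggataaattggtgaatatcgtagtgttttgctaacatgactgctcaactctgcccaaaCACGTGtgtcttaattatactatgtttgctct
Smoc2 intron, chr17:14419508-14419658, plus strand: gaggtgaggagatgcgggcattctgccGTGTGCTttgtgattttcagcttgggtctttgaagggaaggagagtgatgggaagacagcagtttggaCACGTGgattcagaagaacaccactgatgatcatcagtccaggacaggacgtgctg
The site in Abca1, which encodes a cholesterol exporter, had a score of 14.49 in Rb-deficient villus and 30.17 in control villus. The site in Smoc2, a gene of intestinal stem cells, had a score of 14.19 in Rb-deficient villus and 19.92 in control villus. Both lay within 10 bp of an E2f3 site and carried the word, 82 bp before the Abca1 site and 92 bp before the Smoc2 site.

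Sharing between the genotypes was far above shifted positions. Of the Rb-deficient sites, 2953 (71.7%, 70.3 to 73.1) had a control villus Myc site within 250 bp, and 2932 control sites (40.6%, 39.5 to 41.7) had an Rb-deficient one. On the reference chromosomes 2815 Rb-deficient sites were shared, against a mean of 5.42 (range 1 to 13) over 100 fixed shifts of the control list in steps of 1 Mb, a 519-fold excess. Over 8 local shifts of 5 to 50 kb the mean was 15.1 (range 7 to 27), a 186-fold excess. Shared sites lay a median of 13.0 bp from their partner, and 94.4% of the Rb-deficient ones lay within 50 bp. The share varied little by chromosome, between 66.1% and 76.9% of Rb-deficient sites and between 36.5% and 44.2% of control sites over 20 chromosomes.

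Partners were nearly one to one, so the shares of lists of equal length lie close by construction. With the 4119 highest-scored control sites, 57.8% (56.2 to 59.3) of Rb-deficient sites and 57.0% (55.4 to 58.5) of control sites were shared. Sharing climbed with the score within each list. In 4 classes of about equal size from the lowest to the highest score, 47.8%, 66.7%, 80.7% and 91.7% of Rb-deficient sites were shared, and 13.9%, 27.8%, 45.2% and 75.7% of control sites. The median score of shared sites was 8.40 against 4.69 for unshared sites in Rb-deficient villus, and 13.7 against 6.13 in control villus.

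**Figure D3:**
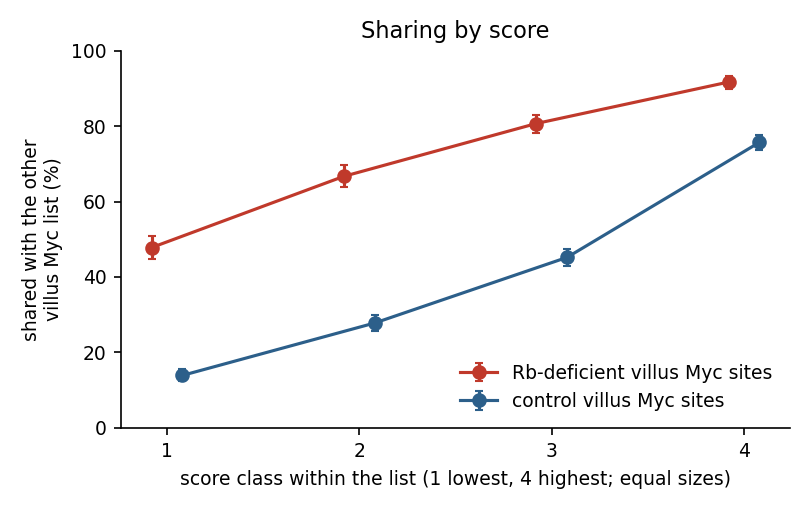
Share of villus Myc sites with a site of the other villus Myc list within 250 bp, in percent (vertical axis), by score class within the list (horizontal axis, 1 lowest and 4 highest); red points are Rb-deficient and blue points control sites, with 95% binomial intervals. The Rb-deficient share goes up from 47.8% in class 1 to 91.7% in class 4 and the control share from 13.9% to 75.7%.

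The same sites recurred with the other antibody and in the other cell type. An E2f3 site of any of the 4 E2f3 libraries lay within 250 bp of 3942 Rb-deficient sites (95.7%, 95 to 96.3) and of 6807 control sites (94.2%, 93.7 to 94.8). On the reference chromosomes, shifted lists gave a mean of 32.8 Rb-deficient sites, against 3778 observed, and 59.2 control sites, against 6635 observed. A crypt Myc site lay within 250 bp of 96.5% of Rb-deficient and 96.7% of control sites. In all 7 other libraries 1999 Rb-deficient sites (48.5%) and 1978 control sites (27.4%) had a partner, and in none of them 54 (1.31%) and 126 (1.74%).

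**Figure D4:**
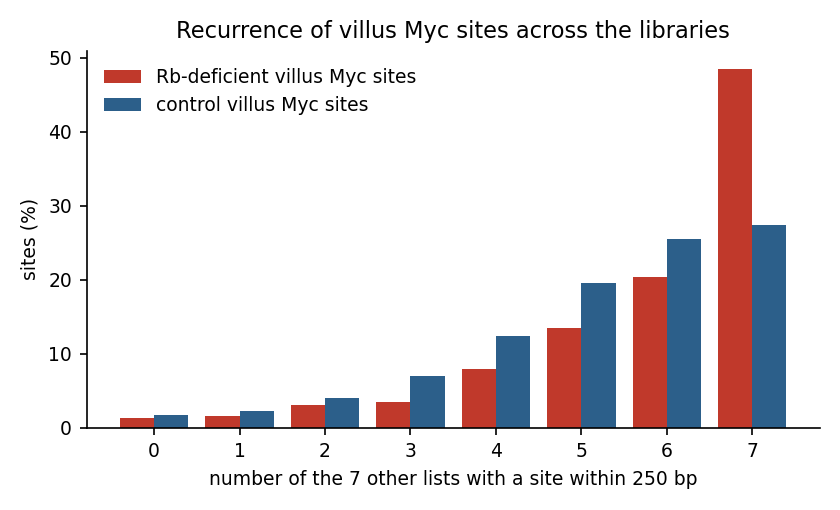
Share of villus Myc sites in percent (vertical axis) by the number of the 7 other libraries with a site within 250 bp (horizontal axis); red bars are Rb-deficient and blue bars control sites. The tallest bar of either list is at 7 libraries, with 48.5% of Rb-deficient and 27.4% of control sites, and the bars at 0 hold 1.31% and 1.74%.

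Set at equal length, the villus Myc lists shared about as much with several other lists as with each other. With all 8 lists at their 4119 highest-scored sites, Rb-deficient villus Myc shared 57.8% with control villus Myc, 55.4% (53.9 to 56.9) with Rb-deficient crypt Myc, 52.1% (50.6 to 53.7) with control villus E2f3 and 41.9% (40.4 to 43.4) with Rb-deficient crypt E2f3. Control villus Myc shared 57.0% (55.4 to 58.5) with Rb-deficient villus Myc and more with 3 other lists. These were Rb-deficient crypt Myc at 63.9% (62.4 to 65.3), control villus E2f3 at 60.7% (59.2 to 62.2) and control crypt Myc at 60.5% (59.0 to 62.0). The other villus Myc list thus gave the highest share for Rb-deficient sites, with an interval that overlapped that of Rb-deficient crypt Myc, and not the highest share for control sites.

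**Figure D5:**
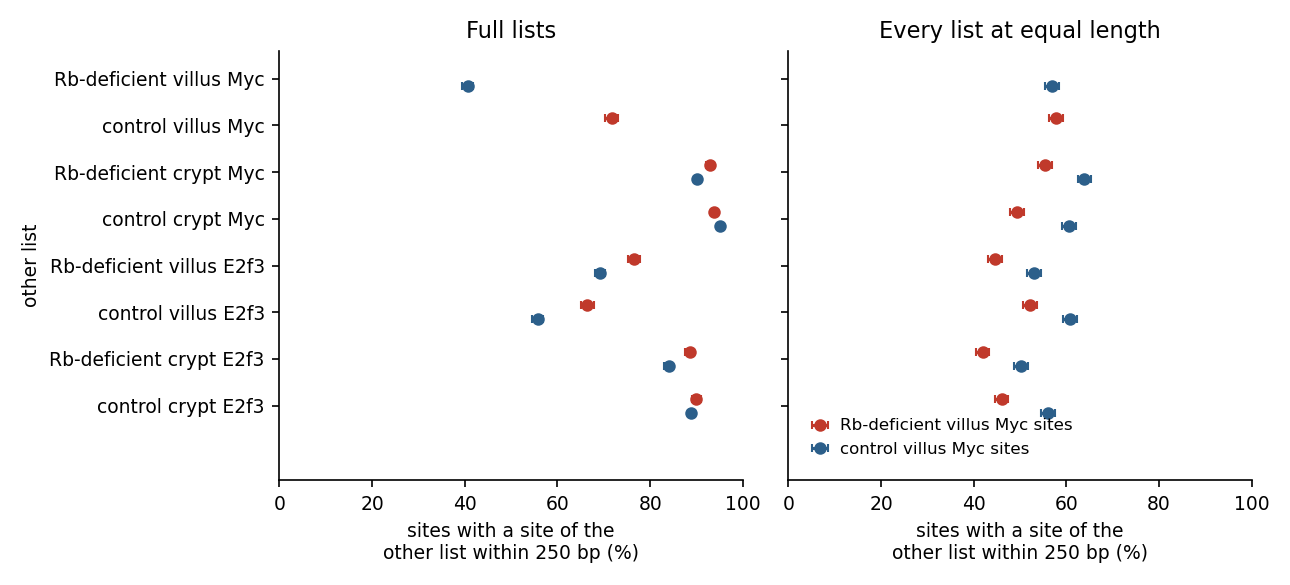
Share of villus Myc sites with a site of the other list within 250 bp, in percent (horizontal axes), for each other list (vertical axis), with full lists at left and every list at its 4119 highest-scored sites at right; red points are Rb-deficient and blue points control villus Myc sites, with 95% binomial intervals. With full lists the shares reach 93.8% and 95.1% with control crypt Myc, the longest list, and at equal length all shares lie between 41.9% and 63.9%.

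Little remained once sites within 250 bp of any E2f3 site were left out. The remainder was 177 Rb-deficient and 416 control sites, of which 32 (18.1%, 12.7 to 24.6) and 34 (8.17%, 5.73 to 11.2) were shared. Of these, 13 Rb-deficient and 15 control sites lay on contigs outside the reference chromosomes, mostly in unplaced sequence. On the reference chromosomes 19 of 151 Rb-deficient sites (12.6%) and 19 of 384 control sites (4.95%) were shared. The shifted lists gave a mean of 0.0100 (range 0 to 1), and the local shifts gave 0. The 19 sites are 0.461% of the Rb-deficient and 0.263% of the control list. They are still more than shifted positions gave. Of the 19, 16 also had a crypt Myc site, as had most sites free of E2f3. Only 45 of all 151 Rb-deficient and 113 of all 384 control sites free of E2f3 lacked one.

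None of the 19 shared sites free of E2f3 had an E-box within 250 bp or lay at a promoter, meaning within 1 kb of the start site of a protein-coding transcript. For the E-box, the interval of 0 of 19 reaches 17.6%. Of all sites free of E2f3, 7.95% in Rb-deficient and 4.43% in control villus had an E-box within 250 bp, both within that interval. Side windows of the 19 sites had 0 of 38. Promoters held 8 of all 151 Rb-deficient and 5 of all 384 control sites free of E2f3. So few sites cannot tell 0 from these shares, and the zeros say nothing particular about the 19. The word accompanied 8 of the 19 (42.1%, 20.3 to 66.5), against 46.4% of all Rb-deficient and 34.9% of all control sites free of E2f3. Without the word 11 of 81 Rb-deficient and 11 of 250 control sites were shared. The sequences below show a pair of them with the word and the one with the second-best joint rank, without the full word.
nearest gene Atp6ap1l, chr13:90762008-90762158, plus strand: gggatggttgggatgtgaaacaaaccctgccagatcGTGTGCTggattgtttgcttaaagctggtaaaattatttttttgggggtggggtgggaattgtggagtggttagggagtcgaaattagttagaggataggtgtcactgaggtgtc
near Chrdl1, chrX:139839371-139839521, minus strand: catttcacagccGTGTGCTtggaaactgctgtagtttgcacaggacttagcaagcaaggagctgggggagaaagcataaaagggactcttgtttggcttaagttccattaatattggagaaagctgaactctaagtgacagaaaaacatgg
nearest gene Tbl1xr1, chr3:21141862-21142012, plus strand: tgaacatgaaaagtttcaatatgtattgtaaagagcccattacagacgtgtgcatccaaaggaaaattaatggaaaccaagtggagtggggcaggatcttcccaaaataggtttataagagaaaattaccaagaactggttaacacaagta
The intergenic site 260932 bp from Atp6ap1l had a score of 6.48 in Rb-deficient villus and 15.16 in control villus, with the word 83 bp before it and the closest E2f3 site 30628 bp away. The intergenic site 10591 bp from Chrdl1 had scores of 4.66 in Rb-deficient villus and 4.69 in control villus. The intergenic site 833587 bp from Tbl1xr1 had scores of 12.99 in Rb-deficient villus and 7.65 in control villus. It lacks the searched word but holds the related words GACGTGT and CGTGTGC, described above, in the printed window. The best joint rank belonged to an intergenic site at chr15:93518479, 92157 bp from Prickle1, with scores of 8.19 in Rb-deficient and 10.44 in control villus. Others of the first 10 lay in introns of Spats2, Prickle2 and Eif2b3, which encodes a subunit of the translation initiation factor eIF2B. In Spats2 the scores were 5.81 in Rb-deficient and 10.44 in control villus, in Prickle2 4.73 and 10.95, and in Eif2b3 4.09 and 6.89. The remaining 3 of the first 10 were intergenic, with nearest genes Slc8a1, Lphn3 and Igfbp7.

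Sites free of E2f3 that did carry an E-box within 50 bp were few, and none was shared. Of all sites free of E2f3 on the reference chromosomes only 12.6% in Rb-deficient and 4.95% in control villus were shared. None shared among so few is near those shares. Such E-box sites numbered 5 in Rb-deficient villus (3.31% of 151, 1.08 to 7.56, against 0.662% of side windows) and 3 in control villus (0.781% of 384, 0.161 to 2.27, against 0.911%). Those of the Rb-deficient list with a crypt Myc site and no word are shown, with 55 bases to each side of the site on the plus strand and CACGTG in capitals.
Ncl intron, chr1:88255108-88255218, plus strand: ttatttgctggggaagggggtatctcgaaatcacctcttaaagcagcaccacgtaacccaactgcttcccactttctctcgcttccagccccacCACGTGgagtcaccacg
Thra intron, chr11:98611856-98611966, plus strand: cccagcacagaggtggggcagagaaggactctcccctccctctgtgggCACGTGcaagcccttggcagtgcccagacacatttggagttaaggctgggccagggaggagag
Mgat5 intron, chr1:129216625-129216735, plus strand: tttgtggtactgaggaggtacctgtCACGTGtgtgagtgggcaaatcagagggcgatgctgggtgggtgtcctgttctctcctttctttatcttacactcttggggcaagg
The Ncl site lay in an intron, 867 bp from the start site of the gene, which encodes nucleolin, a nucleolar protein of ribosome production and a well-known Myc target. It scored 4.83 in Rb-deficient villus and had no control villus partner, since the closest control site was 3474 bp away. An E2f3 site lay 980 bp away, so that with a limit of 1000 bp it would not count as free of E2f3. The same place was a Myc site in both crypt libraries, with 90.01 in Rb-deficient and 50.13 in control crypt, and its E-box began 39 bases after the villus site. The site in Thra, which encodes a thyroid hormone receptor, scored 5.02 and lay 4 bp from an Rb-deficient crypt Myc site. The site in Mgat5, which encodes a glycosyltransferase, scored 2.69 and had crypt Myc partners in both genotypes. All 3 scores were in the lower part of the Rb-deficient list, at 70.9%, 69.1% and 93.9% of the way down the ranking.

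Few villus Myc sites lay at promoters. Promoter sites were 2.85% (2.35 to 3.42) of the Rb-deficient list, against a mean of 2.27% (range 1.83 to 2.85) over shifts. They were 2.38% (2.04 to 2.76) of the control list, against a mean of 2.29% (range 1.92 to 2.82). The Rb-deficient share was as high as the highest shift, and the control share lay within the range of the shifts. Introns held 43.8% of Rb-deficient and 43.0% of control sites, against 35.2% for both over shifts. Intergenic sequence held 53.3% of Rb-deficient and 54.1% of control sites, against 61.8% for both. The side windows were more repetitive than the sites. The central 25 bases occurred more than once in the genome at 3.84% of Rb-deficient sites, against 14.4% of side windows, and at 3.43% of control sites, against 13.6%.

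Promoters of 94 genes (0.423%) in Rb-deficient and 164 genes (0.737%) in control villus held a site, out of 22238 protein-coding genes. Shifted lists gave means of 90.9 (range 73 to 111) and 169 (range 152 to 186) genes. Both lists had a promoter site in 62 genes (0.279% of all), Rb-deficient villus alone in 32 (0.144%) and control villus alone in 102 (0.459%). At equal list length the difference turned round, with 45 genes in Rb-deficient villus alone and 33 in control villus alone. Of the 62 genes, all had a promoter site in a crypt Myc list and 61 had one in a villus E2f3 list. Of all protein-coding genes, 8.28% had one in Rb-deficient and 17.2% in control crypt Myc. The share of all genes for villus E2f3 is not given here. Without the sites near E2f3, 7 genes in Rb-deficient and 5 in control villus kept a promoter site, and none was in both.

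Few promoter sites fell on genes known as Myc targets, as on genes in general. Of 28 ribosome biogenesis genes, 1 had a promoter site in Rb-deficient villus (Ncl, above) and 0 in control villus, against 16 in Rb-deficient and 9 in control crypt Myc. Of 28 metabolic and translation targets of Myc, 0 had one in either villus list, against 11 in Rb-deficient and 9 in control crypt. The 11 genes of the Myc network, which includes Max and the Mxd repressors, had 0 in either villus list. At the 0.423% and 0.737% of all genes with a site in Rb-deficient and in control villus, lists of this size are expected to hold about 0 or 1, so these counts say nothing particular about Myc targets. In the crypt lists 8.28% of all genes in Rb-deficient and 17.2% in control had a promoter site.

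For lists outside the Myc programme the counts were likewise near the share of all genes. Neither villus list had a promoter site in 36 DNA replication genes, 29 of G2/M and mitosis, 26 Rb-E2F and G1/S regulators, 20 villus enterocyte genes, 20 intestinal transcription factors or 15 intestinal stem cell and crypt genes. The same held for 13 secretory, 12 immune and 12 stromal and endothelial genes. The olfactory receptor genes, a large family of nasal sensory receptors, had a promoter site in 2 of 1113 cases in Rb-deficient villus (0.180%, against 0.423% of all genes) and 4 in control villus (0.359%, against 0.737%). Both Rb-deficient ones, Olfr1444 and Olfr693, were also in the control list. Neither Myc nor Rb1 had a promoter site in either villus Myc list.

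The best-ranked genes with sites in both lists were mostly predicted genes at the start of chromosome 9. Of the first 10, 9 were Gm10106, Gm10716, Gm10718, Gm10719, Gm11167, Gm17535, Gm10720, Gm10715 and Gm10717. Their sites lay between chr9:3016342 and chr9:3037371, each with the score at its cap of 999 in at least 1 list. Sequence was repeated at some of these sites and not at others. The 25 bases at the Gm10719 site occurred 149 times in the genome, and those at the Gm10716 and Gm10720 sites occurred 1 time. Of the sites at the cap, 11 of 24 in Rb-deficient and 13 of 30 in control villus lay in the first 3.1 Mb of chromosome 9. The word was not searched at 2 capped sites in each list that lay on contigs. At the other capped sites, 0 carried it in either list. The tenth gene was Taco1, a translational activator of mitochondrial cytochrome c oxidase. Its intronic site had scores of 30.90 in Rb-deficient villus and 47.04 in control villus, 10 bp apart, with an E2f3 site 9 bp from the Rb-deficient position.

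Among the 32 genes with a site in Rb-deficient villus alone, the highest score was at the cap, at Gm10801 on chromosome 2, with no partner in any other library. Ank1, which encodes an ankyrin that anchors membrane proteins, followed with 35.81 and lay on the same base as an E2f3 site. Msx2, a homeobox gene, scored 12.51, and its site carried the word and lay 8 bp from an E2f3 site. Tpd52l2 with 8.94 and Chmp6 with 8.40 also carried the word. A single site of 7.80 lay within 272 bp of start sites of Atf5, Il4i1 and Nup62, genes without a crypt Myc promoter site. The others of the first 10 were Gm11168 with 26.77 and 1700030F18Rik with 15.84. Of the 32 genes, 28 had a promoter site in a crypt Myc list.

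Among the 102 genes with a site in control villus alone, Gm10722 on chromosome 9 was at the cap and Rnf212, which encodes a meiotic recombination factor, scored 39.23. Faim3 scored 23.09 and Hydin, a gene of motile cilia, 17.79. Mrpl50, which encodes a mitochondrial ribosomal protein, and Zfp189 shared a site of 13.74. Crebzf scored 13.64, Fate1 13.46, R3hdm2 12.18 and 4931423N10Rik 11.57. All of these but the Gm10722 site lay within 50 bp of an E2f3 site, and all of the genes had a promoter site in both crypt Myc lists. Of the 102 genes, 100 had a promoter site in a crypt Myc list. None of the genes named here from either genotype alone carried an E-box within 50 bp of its site, other than Ncl.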

How the data were processed

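Myc and E2f3 binding was measured by ChIP-exo-seq in 8 libraries, 1 for each group of genotype, cell type and antibody, and groups follow the sample labels. The tools, per the submitters' processing notes, were Bowtie2 2.2.1 and MACS2 2.0.10, and the build was mm9. Names of the deposited files say that each list holds GEM events overlapping peaks of MACS2, with data merged and duplicates kept. The sources used here do not say what was merged, and give no thresholds, read numbers or library oligonucleotides. The deposited score of each site is the authors' value, between 2 and 999, and neither its meaning nor any normalization was stated. A longer list may come from a deeper library, so shares were also computed at equal list length.

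Deposited positions were taken to count from 0 and are printed plus 1. Sites were shared when they lay within 250 bp. The background was 100 circular shifts in steps of 1 Mb and 8 local shifts, all fixed. Sequence came from NCBIM37, on which mm9 rests, and genes from GENCODE M1, with 46006 start sites of protein-coding transcripts. Motifs were compared with windows 2 kb to each side. Python 3.11.15, numpy 2.4.6, scipy 1.17.1 and pysam 0.24.0 were used, and the functions were tested on simulated sites. With 1 library a group no test was run. The sites, the 14 gene lists and the rules were chosen with earlier results of these data known.

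Genes named were the 10 best-ranked with a promoter site in both lists, the 10 highest-scored in each genotype alone, members of the Myc, ribosome and metabolic lists with a site, and Myc and Rb1. Sites named were the 10 best-ranked shared sites free of E2f3. The sites shown with sequence, the E-box sites free of E2f3 and the olfactory genes were named after their values were seen. The result of 1 of the gene lists is not reported here.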

Additional observations from a re-analysis of the deposited data

How the results depend on the processing

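No paired analysis was possible because each group has 1 library. Shared sites stood far above shifted positions with whole-chromosome and with local shifts; no shifts were run at the other distances, list lengths or thresholds. The shares moved with the settings, and the causes were not tested beyond what each setting does by construction. The share of Rb-deficient and of control sites shared was 67.7% and 38.5% at 50 bp, 57.8% and 57.0% at equal length, 77.5% and 44.2% in the higher-scored part of each list above its median, 67.9% and 38.0% without sites within 10 kb of another, and 66.5% and 32.9% without the word. At 1000 bp the Rb-deficient share was 73.1%. Free of E2f3, the Rb-deficient and control shares were 34.6% and 24.4% in the higher-scored part, 11.6% and 4.64% without clusters, and 12.6% and 4.95% on the reference chromosomes. The control share free of E2f3 was 15.8% at equal length and 4.40% without the word. Promoter sites in the Rb-deficient and control lists were 1.37% and 1.03% at 500 bp, 12.3% and 11.3% at 5 kb, 5.30% and 1.3% free of E2f3, and 4.47% and 2.99% without the word. In the higher-scored part the Rb-deficient promoter share was 3.59%. E-box shares were 8.20% and 7.74% within 250 bp and 3.31% and 0.781% free of E2f3. Without the word the control E-box share was 0.748%. Genes in both lists, in Rb-deficient alone and in control alone numbered 30, 19 and 38 at 500 bp, 354, 145 and 452 at 5 kb, and 0, 7 and 5 free of E2f3. At equal length 33 genes were in control alone, against 102 with full lists, and 45 in Rb-deficient alone, against 32. The direction of that difference thus turned with list length. The settings without the word and without contigs, and the count of E-boxes apart from the word, were chosen after seeing the data. Unknown depth and 1 library a group limit every comparison of the genotypes.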

Other observations

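Sites with no partner in any other library were few, 54 in Rb-deficient and 126 in control villus. The highest-scored of them in Rb-deficient villus were at the cap of 999, at chr9:3025534 in Gm10717, at chr12:3109971 and at chr2:98503023 in Gm10801. In control villus the highest were chr9:3000121, 801 bp from Gm10722, at the cap, and a site in a UTR of Slc30a4, a zinc transporter gene, with a score of 19.34. None of these 5 sites carried the word or an E-box.

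Sites on contigs outside the reference chromosomes were 190 in Rb-deficient and 204 in control villus, with 182 and 189 of them in unplaced sequence. There, 131 Rb-deficient and 131 control sites were shared. Sites within 10 kb of another site of the same list were 13.2% of the Rb-deficient and 11.6% of the control list.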
